A study of Macaca fascicularis with 23 samples.

Results

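CAV1, CAV2, TM4SF1, TM4SF18 and FBLIM1 are 5 genes of membrane domains and cell adhesion, and they are followed here in cynomolgus monkey (Cm) pluripotent stem cells (PSCs) in 3 media and in cells from liver and stomach. They were picked by name, with earlier results of the same libraries known, as genes that differ between the media. All 5 were found among the 8415 genes analysed. CAV2 (gene ID 102122005), TM4SF18 (102139835) and FBLIM1 (102122370) stood under their symbols, whereas CAV1 (101865646) and TM4SF1 (102142030) were found by gene ID in the annotation of assembly T2T-MFA8v1.1. In the gene order of that assembly CAV2 and CAV1 are neighbouring coding genes on chromosome 3, TM4SF18 and TM4SF1 are neighbours on chromosome 2, and FBLIM1 lies on chromosome 1.

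Caveolins are the membrane proteins that form the coat of caveolae, flask-shaped pits of the plasma membrane that take part in lipid handling, signalling and the buffering of membrane tension. CAV1 is needed to form these pits in most tissues, and CAV2 partners it in mixed oligomers. TM4SF1 and TM4SF18 belong to the L6 family of small proteins that cross the membrane several times, which is distinct from the true tetraspanins, and TM4SF1 is known for its abundance in endothelial and many epithelial tumour cells. FBLIM1 (migfilin) is a LIM protein that links filamin to kindlin at sites where cells attach to the matrix.

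Expression was measured by SC3-seq, which sequences the 3′ ends of amplified cDNA, and is given as RPM, the reads of a gene per 1000000 mapped reads. From each of 7 lines there was 1 library in every medium, so each medium has n = 7. The lines were the 3 embryonic stem cell (ESC) lines CMK6, TRSK and CMK9 and the 4 induced PSC (iPSC) lines iPS-L3 with iPS-L6, reprogrammed from liver cells, and iPS-S6 with iPS-S12, reprogrammed from stomach cells, all 4 with episomal vectors and from a single female foetus. Primed PSCs grew in bFGF/KSR. Naïve-like PSCs grew in K5cLD, that is KSR-based medium with the compounds CHIR99021, forskolin, kenpaullone, SB590885 and Gö6983 plus LIF and doxycycline (Dox), and they carried PiggyBac transgenes of human KLF2 and NANOG under a Dox-inducible promoter and an EOS-GFP/puroR reporter. Differentiated cells were those naïve-like cells after LIF and Dox had been withdrawn (K5c), so that they carried the same transgenes. Before RNA was taken, all PSCs were passaged on laminin without mouse feeder cells. The liver and stomach libraries (n = 1 each) came from cultured cells of the foetus that gave the iPSCs. In the liver library AFP, ALB, APOA2 and TF, the 4 measured markers of liver, were all listed at 0, while 6 fibroblast markers summed to 5176 RPM, so it is called liver by its label only. The stomach library had 5172 RPM of the same fibroblast markers and 444 RPM of gastric epithelial markers, with TFF1, TFF2 and CLDN18 at 89.5, 166 and 188 RPM and PGC listed at 0. These 4 gastric markers were listed at 0 in the liver library. Most of the fibroblast sum was COL1A2, with 4832 RPM in liver and 4506 RPM in stomach. TWIST1 (0.587 and 5.84 RPM) was below its primed PSC median of 7.08 RPM, and the other fibroblast markers were above theirs.

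Libraries held 861000 to 7986000 reads, and the median library held 3250000 reads for primed, 2648000 for naïve-like and 3063000 for differentiated cells. The level reached with 3 reads was 0.38 to 3.49 RPM, and values below it were not detectable at this depth. Means, standard deviations (SD) and differences between media are given on the log2(RPM + 1) scale, which understates the change of genes at low level. Libraries are numbered medium by medium, so the medium and any order of preparation cannot be told apart. In bulk RNA, fewer cells that express a gene and less RNA per cell cannot be told apart either. No p-value is given for the 5 genes between media, because they were picked on these values.

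CAV1, the coat protein, fell on naïve-like conversion and partly returned after withdrawal. In primed PSCs it was lowest in CMK9 (551 RPM), had a median of 911 RPM and was highest in iPS-S6 (1365 RPM). In naïve-like PSCs it ran from 30.8 RPM in CMK6 over a median of 140 RPM to 231 RPM in CMK9. Every naïve-like library lay below every primed library. The median was 6.52-fold lower, and the difference of the means was -2.85 ± 0.35 (log2, standard error (SE)). Within the lines the fall ranged from -1.25 in CMK9 to -5.29 in CMK6.

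After LIF and Dox were withdrawn, CAV1 was again higher in 7 of 7 lines. It ran from 147 RPM in TRSK over a median of 363 RPM to 659 RPM in iPS-S12. The difference from naïve-like cells was 1.49 ± 0.35 (log2, SE), from 0.58 in TRSK to 3.52 in CMK6. CAV1 did not reach its primed level in any line. It remained lower than in primed cells of the same line by -0.12 in iPS-S12 to -2.55 in iPS-S6, and the means differed by -1.35 ± 0.35. Its levels ran, from high to low, primed PSCs, stomach cells (784 RPM), differentiated cells, liver cells (305 RPM) and naïve-like PSCs. The stomach value lay inside the primed range and the liver value inside the differentiated range. Differentiated libraries overlapped with the primed and with the naïve-like range.

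CAV2, the partner of CAV1, was lower in naïve-like than in primed cells in 6 of 7 lines. Its primed values ran from 51.5 RPM in CMK9 over a median of 88.3 RPM to 183 RPM in CMK6. The naïve-like values were 12.1 RPM in CMK6, 25.5 RPM at the median and 57.1 RPM in CMK9. The groups overlapped through CMK9, the only line in which CAV2 was not lower in naïve-like than in primed cells (0.15, log2). The means differed by -1.77 ± 0.33 (log2, SE), with a 3.47-fold lower median. In differentiated cells CAV2 had a median of 31.96 RPM, between 12.2 RPM in iPS-S6 and 69.0 RPM in iPS-S12. It was higher than in naïve-like cells in 5 of 7 lines and lower in CMK9 and iPS-S6, and the difference of 0.26 ± 0.33 was smaller than its error. Compared with primed cells it was lower in 7 of 7 lines (-1.51 ± 0.33). The order of levels was stomach cells (148 RPM), primed PSCs, liver cells (73.4 RPM), differentiated cells and naïve-like PSCs, with both somatic values inside the primed range.

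**Figure D1:**
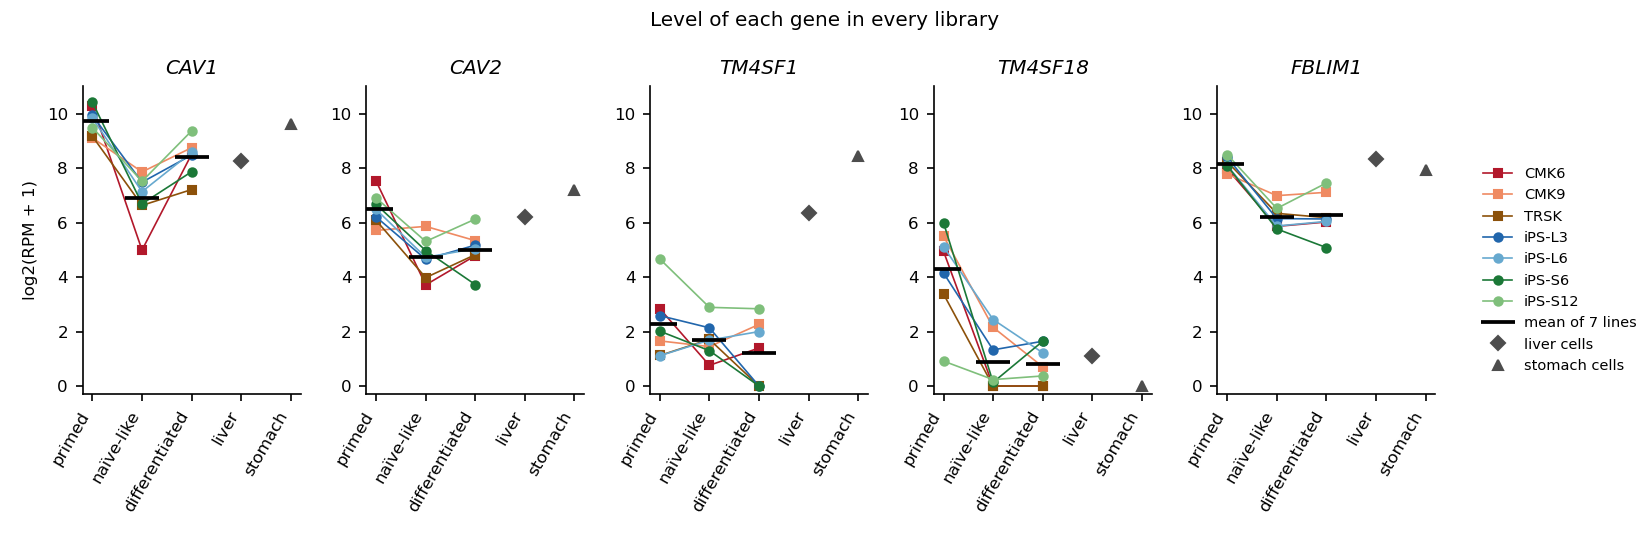
Level of CAV1, CAV2, TM4SF1, TM4SF18 and FBLIM1 in each library, as log2(RPM + 1) on the vertical axis, for the 3 media and the liver and stomach cells on the horizontal axis. Lines join the libraries of a cell line (squares, ESCs; circles, iPSCs), bars are means over 7 lines, and the mean of CAV1 goes from 9.75 in primed to 6.90 in naïve-like and 8.395 in differentiated cells, while that of FBLIM1 goes from 8.15 to 6.21 and 6.29.

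Because the caveolins moved by different amounts, the ratio of their RPM values was taken within each library. It is used only to compare libraries, since the RPM of different genes also depends on how their 3′ ends were annotated. CAV1 was a median of 10.3 times CAV2 in primed PSCs (6.04 to 13.6). In naïve-like PSCs the ratio had a median of 4.71 (2.54 to 7.36), and it was lower than in the primed library of the same line in 7 of 7 lines. In differentiated cells it had a median of 10.9 (5.39 to 19.0). The highest value, in iPS-S6, rested on about 11.5 reads of CAV2, and the next was 13.7 in CMK6. The differentiated ratio was higher than the naïve-like one in 6 of 7 lines, the exception being TRSK. The ratio was 4.16 in liver and 5.31 in stomach cells, inside the naïve-like range. The protocol did not mark the strand, so reads of neighbouring genes that overlap could not be told apart.

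**Figure D2:**
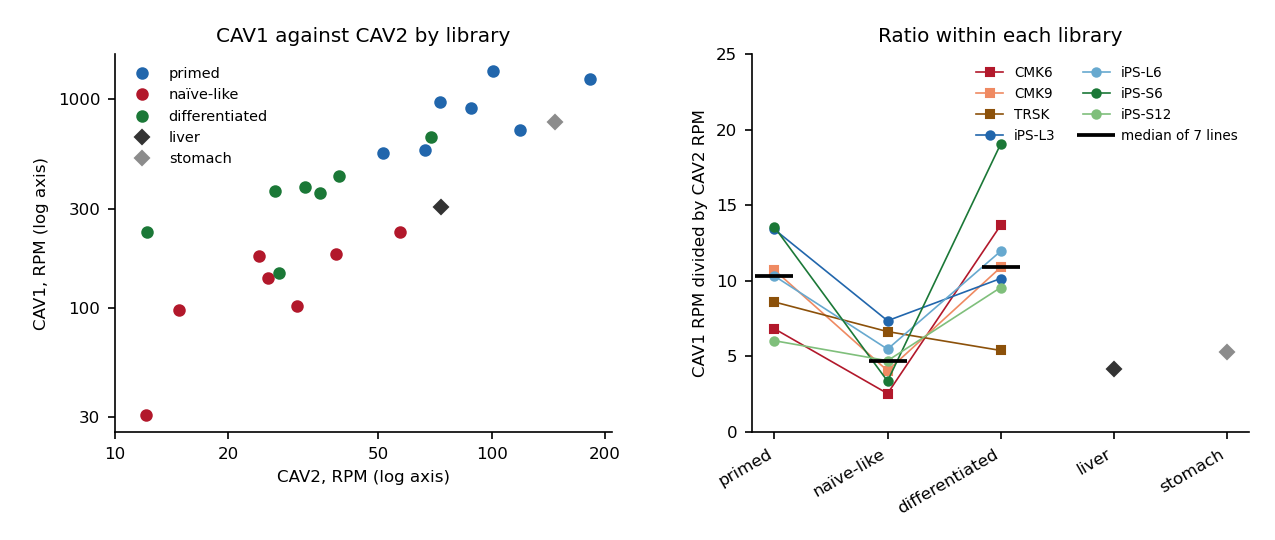
CAV1 against CAV2 in RPM with log axes (left, 1 point per library) and the CAV1 to CAV2 ratio of RPM in each library with lines joining the libraries of a cell line (right; bars are medians over 7 lines). The ratio is lower in naïve-like than in primed cells in 7 of 7 lines, with medians of 4.71 and 10.3.

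TM4SF18 counted as expressed, above 4 on the log2(RPM + 1) scale, only in primed libraries (5 of 7). Its primed values ran from 0.886 RPM in iPS-S12 over a median of 29.8 RPM to 63.0 RPM in iPS-S6. In naïve-like PSCs the median was 0.178 RPM and the highest value 4.43 RPM (iPS-L6), and CMK6 and TRSK were listed at 0. In differentiated cells the median was 0.633 RPM and the highest value 2.13 RPM (iPS-L3). It was lower in 7 of 7 lines in naïve-like cells (-3.39 ± 0.63, log2, SE) and in differentiated cells (-3.49 ± 0.63), both against primed cells. In iPS-S12 the primed, naïve-like and differentiated libraries held 2, 1 and 1 reads of it, so a fall was not resolved in that line. The groups overlapped only through primed iPS-S12, which stood below the level of 3 reads. Below that level were also 4 of 7 naïve-like and 5 of 7 differentiated libraries, and the difference between these media was -0.10 ± 0.63. The sizes of its falls therefore depended on the pseudocount, and with 0.1 in place of 1 they were -4.98 and -4.91. Liver (1.17 RPM) and stomach (listed at 0) cells were also below 3 reads, so that the primed PSCs were the only condition in which TM4SF18 was above this level in more than 3 libraries.

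TM4SF1, its neighbour and relative, had a different distribution. It was highest in stomach cells, with 349 RPM, and stood at 81.0 RPM in liver cells. In primed PSCs the values ran from 1.16 RPM in iPS-L6 over a median of 3.04 RPM to 24.4 RPM in iPS-S12, the second highest being 6.15 RPM in CMK6. Both somatic values thus lay above all 21 PSC libraries. In naïve-like PSCs TM4SF1 ran from 0.692 RPM in CMK6 over 2.22 RPM to 6.41 RPM in iPS-S12. In differentiated cells it ran from 0 in TRSK, iPS-L3 and iPS-S6 over 1.63 RPM to 6.14 RPM in iPS-S12. The level of 3 reads in differentiated iPS-L3 and iPS-S6 was 3.19 and 3.18 RPM, above that median. TM4SF1 was below 3 reads in 1 of 7 primed, 3 of 7 naïve-like and 3 of 7 differentiated libraries, so the direction in single lines is uncertain. The 3 media overlapped. The naïve-like mean differed from the primed mean by -0.58 ± 0.57 (log2, SE), and 5 of 7 lines were lower. The differentiated mean differed from the primed mean by -1.07 ± 0.57 and from the naïve-like mean by -0.49 ± 0.57. With a pseudocount of 0.1 these values were -2.29 and -1.58. iPS-S12 was the highest of the 7 lines in every medium, and without it the naïve-like against primed difference was -0.38. Without any 1 line that difference ran from -0.78 (without TRSK) to -0.33 (without CMK6), and that between differentiated and naïve-like cells from -0.71 (without CMK9) to -0.22 (without iPS-L3). TM4SF1 counted as expressed, above 4 on the log2(RPM + 1) scale, through the primed iPS-S12 library alone.

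In iPS-S12 the TM4SF genes stood at opposite ends, with the highest TM4SF1 and the lowest TM4SF18 of the primed libraries. Over the 21 PSC libraries, Pearson's r between TM4SF1 and TM4SF18 was 0.07, and -0.43 after the mean of each medium was removed. Spearman's rho was 0.10 and -0.21. Both genes had values below 3 reads in every medium, so no relation between them is read from these values. Primed iPS-S12 also had the lowest summed RPM of 9 pluripotency markers among the PSC libraries (956 RPM, against 1194.76 to 2735 RPM in the others). Its fibroblast markers summed to 326 RPM. Primed TRSK had more fibroblast marker RNA (652 RPM) with 1.18 RPM of TM4SF1. What part these differences between libraries had in the TM4SF values was not tested.

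FBLIM1 was lower in naïve-like cells by much the same amount in most lines. In primed PSCs it ran from 219 RPM in CMK9 over a median of 273 RPM to 361 RPM in iPS-S12, a spread of 0.25 (SD, log2, n = 7). In naïve-like PSCs it ran from 53.4 RPM in iPS-S6 over a median of 69.9 RPM to 126 RPM in CMK9. Every naïve-like library lay below every primed library. The difference was -1.94 ± 0.26 (log2, SE), a 3.91-fold lower median, and the change in a line had an SD of 0.53, against 1.31 for CAV1 and 1.16 for CAV2. In differentiated cells FBLIM1 ran from 32.9 RPM in iPS-S6 over a median of 69.2 RPM to 174 RPM in iPS-S12. This differed from naïve-like cells by 0.08 ± 0.26, with 4 lines higher and 3 lower, and from primed cells by -1.86 ± 0.26 with no overlap. For CAV1 the value on withdrawal was 1.49 ± 0.35, and the difference between the genes was not tested. Liver (322 RPM) and stomach (240.0 RPM) cells lay inside the primed range.

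**Figure D3:**
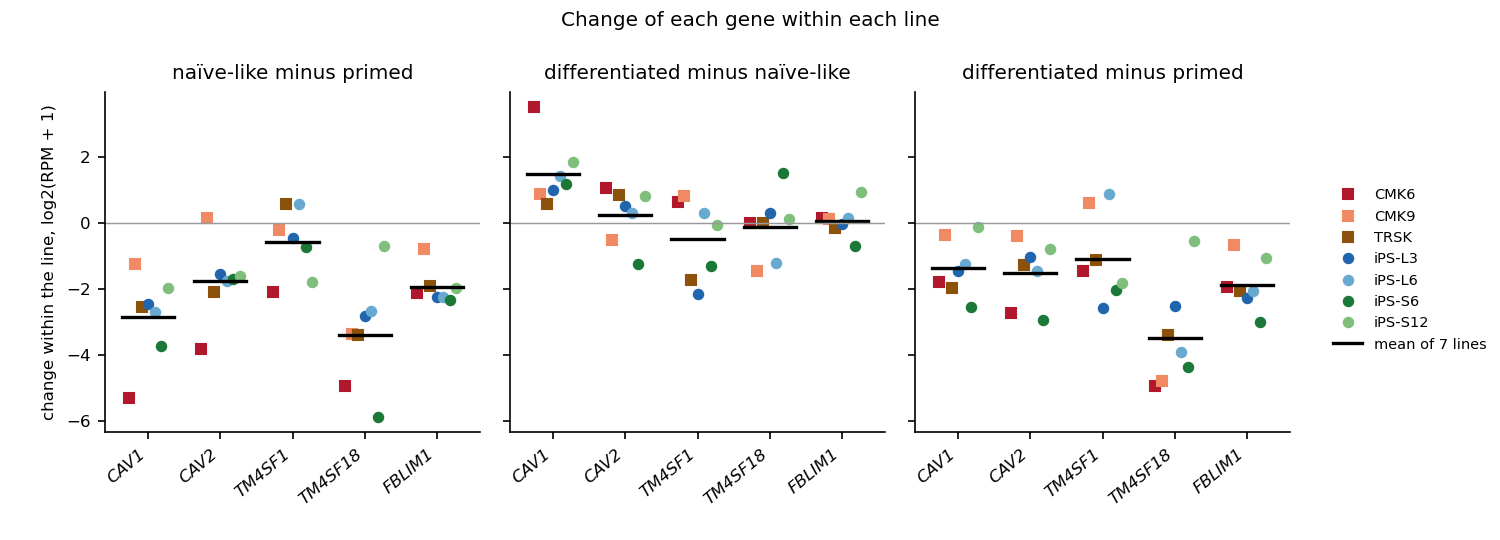
Change of each gene within each line on the log2(RPM + 1) scale, for naïve-like minus primed, differentiated minus naïve-like and differentiated minus primed cells; each point is 1 line and bars are means over 7 lines. CAV1, TM4SF18 and FBLIM1 are below 0 in 7 of 7 lines in the first panel, and CAV1 alone is above 0 in 7 of 7 lines in the second. TM4SF18 in iPS-S12 was below 3 reads in every medium.

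Among all 2776 genes tested with limma, 8.18% were lower in naïve-like than in primed cells at a Benjamini-Hochberg adjusted p under 0.05, and 4 of the 5 genes (all but TM4SF1) were among them, from which nothing is read because they were picked on these values. TM4SF18 also entered the tested genes only through primed libraries. That favours a lower call against primed cells, here and for differentiated cells. In differentiated against naïve-like cells 6.41% of genes were higher, and CAV1 was the member among them. In differentiated against primed cells 7.13% were lower, again with 4 of the 5 genes, and CAV1 left that count when iPS-S6 was left out (-1.15) and when genes were not filtered. CAV1, TM4SF18 and FBLIM1 were lower in all 7 lines in naïve-like against primed cells, as were 6.3% of genes, and CAV1 was higher in all 7 lines on withdrawal, as were 9.11%. In differentiated against primed cells all members but TM4SF1 were lower in all 7 lines, as were 6.88% of genes. For TM4SF18 the counts of 7 lines include iPS-S12, where it was below 3 reads in every medium. Naïve-like libraries did not overlap with primed libraries and were lower in 1.66% of genes, which held CAV1 and FBLIM1, and the same held for differentiated against primed libraries in 1.62%, which held FBLIM1. These comparisons share libraries, so their values are given only side by side.

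Lines differed in how far they moved, and the following lines are named after their values were seen. CMK9 had the smallest fall on naïve-like conversion in CAV1 and FBLIM1 (-1.25 and -0.79, log2) and the slight rise in CAV2, and its naïve-like library was the highest of the 7 for all 3 genes. The same library had the highest naïve-like sums for markers of fibroblasts (131 RPM), amnion and trophoblast (58.7 RPM) and endothelium (11.2 RPM). It was not the highest for the neural sum (386 RPM, TRSK 394 RPM) or the endoderm and liver sum (19.9 RPM, iPS-L6 33.2 RPM). Its pluripotency marker sum was 2547 RPM, in a naïve-like range of 1857 to 2735 RPM. CMK6 had the largest falls of both caveolins (-5.29 and -3.81), and its naïve-like library was the lowest for both. In the differentiated condition iPS-S12 was the highest line for CAV1, CAV2, TM4SF1 and FBLIM1, and iPS-S6 the lowest for CAV2 and FBLIM1. The fibroblast marker sum of differentiated cells was 160 RPM in iPS-S12 and 19.1 RPM in iPS-S6, but it was highest in TRSK (298 RPM), which had the lowest CAV1 (147 RPM) and TM4SF1 at 0, and it was 229 RPM in CMK6, 189 RPM in CMK9, 32.6 RPM in iPS-L6 and 18.1 RPM in iPS-L3. What part other cell types had in these differences was not tested.

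The marker lists were incomplete among the genes analysed. Fibroblast markers (6 of 19 measured, none at 0 throughout) summed to 84.8 to 652 RPM in primed, 33.2 to 131 RPM in naïve-like and 18.1 to 298 RPM in differentiated cells. Endothelial markers (3 of 13 measured, KDR, TIE1 and ERG), which matter here because caveolins and TM4SF proteins are abundant in endothelium, summed to 4.70 to 48.1 RPM in primed, 1.11 to 11.2 RPM in naïve-like and 0 to 5.06 RPM in differentiated cells. ERG was listed at 0 in every library and TIE1 did not exceed 1.14 RPM, so this sum was mostly KDR, a single gene. The medians of this sum, 24.7, 4.91 and 0 RPM, were lower in both other media than in primed cells, as those of TM4SF18 were, and the part of endothelial cells in the values of TM4SF18 was not tested. The medians of the fibroblast sum were 138, 75.5 and 160 RPM, and those of COL1A2 alone were 75.5, 25.6 and 101 RPM. Amnion and trophoblast markers (5 of 16 measured) had medians of 52.9, 20.8 and 59.9 RPM in primed, naïve-like and differentiated cells, and the neural markers NES and PTN (2 of 10 measured) 417, 205 and 440 RPM. Endoderm and liver markers (4 of 14 measured, mostly AFP) had medians of 47.6, 9.44 and 29.8 RPM. The medians of the fibroblast, amnion and trophoblast, neural, and endoderm and liver sums were thus lowest in naïve-like cells, as that of CAV1 was. Single markers and lines went other ways. On withdrawal the fibroblast sum was lower in iPS-L3 (33.2 to 18.1 RPM), iPS-L6 (62.1 to 32.6 RPM) and iPS-S6 (45.3 to 19.1 RPM), in which CAV1 was higher. The medians of TWIST1 were 7.08, 25.4 and 6.66 RPM and those of VTCN1 37.2, 5.66 and 2.94 RPM. The part of these cell types in the values of CAV1 was not tested. Markers of pluripotent cells (9 of 13 measured) had sums with medians of 1732, 2342 and 1703 RPM, most of it LIN28A and SOX2. From primed to differentiated cells the medians of POU5F1 were 238 and 20.2 RPM, those of DPPA4 120 and 29.3 RPM, those of CRIPTO 33.2 and 0.999 RPM and those of HESX1 13.2 and 0 RPM.

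The choice of the genes did not use the origin of the lines, so ESC and iPSC lines were compared with a test. All 4 iPSC lines came from a single female foetus, so origin and donor cannot be told apart. Per the paper the ESC lines CMK6 and TRSK are male and CMK9 is female, so sex also partly goes with origin. The fit treated every library as independent and did not pair those of a line. CAV1 ran from 551 to 1248 RPM in 3 primed ESC lines and from 717 to 1365 RPM in 4 primed iPSC lines. The difference, ESC minus iPSC, was -0.40 (log2, 95% confidence interval -1.41 to 0.62), with an adjusted p of 0.76 by limma over all genes. For FBLIM1 the ranges were 219 to 301 RPM and 271 to 361 RPM, and the difference was -0.27 (-1.05 to 0.51). CAV2 differed by -0.13 (-1.15 to 0.90) and TM4SF18 by 0.57 (-1.32 to 2.45) in primed cells. The interval leaves room for a difference of several fold in TM4SF18. TM4SF1 entered the tested genes through primed iPS-S12, an iPSC library, so no test of origin is read for it.

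In naïve-like cells the difference was -0.71 (-1.73 to 0.30) for CAV1 and 0.32 (-0.46 to 1.10) for FBLIM1. In differentiated cells it was -0.42 (-1.43 to 0.60) for CAV1 and 0.26 (-0.52 to 1.04) for FBLIM1. TM4SF18 was below 3 reads in 4 of 7 naïve-like and 5 of 7 differentiated libraries. No test of origin is therefore read for TM4SF18 in these media or for its changes. At an adjusted p under 0.05 limma did not call CAV1, CAV2 or FBLIM1 in any medium, nor TM4SF18 in primed cells. Of all genes it called 1.59% (primed), 0.72% (naïve-like) and 0.612% (differentiated). At an unadjusted p under 0.05 it did not call these members either, beside 438, 281 and 348 of 2776 genes. The change on naïve-like conversion differed between ESC and iPSC lines by -0.31 (-1.75 to 1.12) for CAV1 and 0.59 (-0.51 to 1.70) for FBLIM1. The change on withdrawal differed by 0.29 (-1.14 to 1.73) for CAV1 and -0.06 (-1.16 to 1.05) for FBLIM1. In these tests of the difference of changes limma did not call CAV1, CAV2 or FBLIM1, and it called 0 of 2776 genes (0.0%). At an unadjusted p under 0.05 it did not call these members either, beside 133 or 109 of all genes.

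The other genes of the same structures were taken from lists, of which 40 genes were measured and 27 were expressed and tested. These lists were chosen with earlier results of the same data known, so their calls and adjusted p-values are not independent tests. Of the 27, 2 rose and 3 fell in naïve-like against primed cells, 2 rose and 1 fell in differentiated against naïve-like cells, and 4 rose and 4 fell in differentiated against primed cells. The medians of their log2 differences were -0.03, 0.06 and 0.04, beside 0.06, -0.02 and 0.05 for all genes tested, of which 19.2%, 14.1% and 13.4% were called in either direction. When genes had to be above 4 (log2) in at least 7 libraries, a filter TAGLN3 did not pass, 1 rose and 1 fell in the second comparison and 3 rose and 4 fell in the third. With the cell line as a block, which pairs the libraries of a line, the numbers called were 10 (3 rose and 7 fell) and 5 (4 rose and 1 fell) in the first 2 comparisons. Without CMK9 the first was 9, and without iPS-S6 it was 3. With libraries centred on their median the numbers were 8 (2 rose and 6 fell) and 5 (4 rose and 1 fell). Without the filter on low values ITGB5, MYLK and ACTB were no longer called in the first comparison, CNN3 in the second, and TSPAN2, ACTA1 and CAPZA1 in the third, and CNN3 was also lost with quantile normalization and, like CAPZA1, without the mean-variance trend.

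The caveola list had 4 genes measured. CAV3, the muscle caveolin, and PACSIN1, a membrane-bending protein of neurons, were at a median of 0 RPM in every condition and were not tested. FLOT1, a flotillin of lipid rafts, had medians of 57.6, 50.6 and 57.3 RPM in primed, naïve-like and differentiated cells and differed between naïve-like and primed cells by -0.03 ± 0.16 (log2, SE). ROR1, a receptor kinase known to bind caveolar proteins, had medians of 67.7, 44.3 and 12.7 RPM. It differed by -0.32 ± 0.35 between naïve-like and primed cells (limma adjusted p = 0.58). It fell on withdrawal by -1.67 ± 0.35 (limma adjusted p = 0.0021, lower in 6 of 7 lines), in the direction opposite to CAV1. In differentiated against primed cells ROR1 was lower by -1.99 ± 0.35 (limma adjusted p = 0.00043, lower in 7 of 7 lines), in the same direction as CAV1.

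Of the L6 family only TM4SF4 and TM4SF19 were measured besides the 2 members, and neither was expressed in PSCs. TM4SF4, the neighbour of TM4SF1 on the other side from TM4SF18, was listed at 0 in all primed libraries, had a median of 3.64 RPM and a maximum of 5.31 RPM in differentiated cells and stood at 5.19 RPM in stomach cells. TM4SF19 did not exceed 0.443 RPM. Of the tetraspanins, TSPAN2 rose in differentiated against primed cells (0.66 ± 0.21, limma adjusted p = 0.038, higher in 7 of 7 lines), a call that was lost without CMK9, iPS-L3, iPS-L6, iPS-S6 or TRSK (0.52 to 0.71).

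FBLIM1 binds filamins, and the LIM proteins zyxin, LPP, TRIP6 and LIMD1 are its relatives. In naïve-like against primed cells 0 of the 5 tested genes of this list passed the threshold in limma. FLNC, the filamin of muscle, differed by -0.73 ± 0.28 (log2, SE; adjusted p = 0.067) and ZYX by -0.68 ± 0.24 (adjusted p = 0.051), each lower in 6 of 7 lines. LPP differed by 0.30 ± 0.21 and TRIP6 by 0.23 ± 0.15. These values lay above that of FBLIM1 (-1.94), and the difference between genes was not tested. ZYX fell in differentiated against primed cells by -1.14 ± 0.24 (limma adjusted p = 0.0027, lower in 6 of 7 lines). LIMD1, at no more than 5.00 RPM, was not tested. FLNC had a median of 79.7 RPM after withdrawal, against 43.2 RPM in naïve-like cells (0.75 ± 0.28, adjusted p = 0.075), and LPP and TRIP6 differed there by -0.03 and -0.19.

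Among integrins 1 of 5 measured genes was tested. This was ITGB5, a subunit of a vitronectin receptor, which fell in naïve-like (-0.68 ± 0.21, limma adjusted p = 0.029) and in differentiated cells (-0.89 ± 0.21, adjusted p = 0.0066), each against primed cells and in 7 of 7 lines. The first call was lost without CMK6, iPS-S12, iPS-S6 or TRSK (-0.69 to -0.64).

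Of 16 tested linkers of focal adhesions to actin, 4 were called in naïve-like against primed cells. FHL3, a LIM-only protein, fell by -0.85 ± 0.19 (limma adjusted p = 0.0039, 7 of 7 lines), and ACTB, cytoplasmic actin, by -0.49 ± 0.12 (adjusted p = 0.0080, 6 of 7 lines). ACTA1, the skeletal muscle actin, rose by 1.54 ± 0.38 (limma adjusted p = 0.0067, 6 of 7 lines) and MYLK, the kinase of myosin light chain, by 1.26 ± 0.35 (adjusted p = 0.014, 7 of 7 lines). The call of MYLK was lost without iPS-L3 or iPS-S6 (1.01 and 1.11). On withdrawal CNN3, a calponin, rose by 0.52 ± 0.16 (limma adjusted p = 0.037, 7 of 7 lines). TAGLN3, a neuronal transgelin, had medians of 0.923, 1.14 and 7.43 RPM in primed, naïve-like and differentiated cells. It counted as expressed only through differentiated libraries (at most 17.3 RPM, against 3.49 and 2.22 RPM in primed and naïve-like cells), so its differences of 2.05 ± 0.43 and 1.93 ± 0.43 from naïve-like and primed cells are given as a description, although it is in the counts of genes that rose. The call of CNN3 was lost without CMK6, iPS-L6, iPS-S12, iPS-S6 or TRSK (0.33 to 0.57). In differentiated against primed cells ACTA1 (1.41 ± 0.38) and CAPZA1 (0.43 ± 0.14), a subunit of the actin capping protein, rose and FHL3 fell (-0.86 ± 0.19). CAPZA1 was lost without CMK6, CMK9, iPS-L3, iPS-S12 or TRSK (0.35 to 0.44). The called genes of the focal adhesion and actin list thus moved in both directions. Those called in the caveola, integrin and FBLIM1 lists (ROR1, ITGB5 and ZYX) only fell, and the called tetraspanin TSPAN2 rose.

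**Figure D4:**
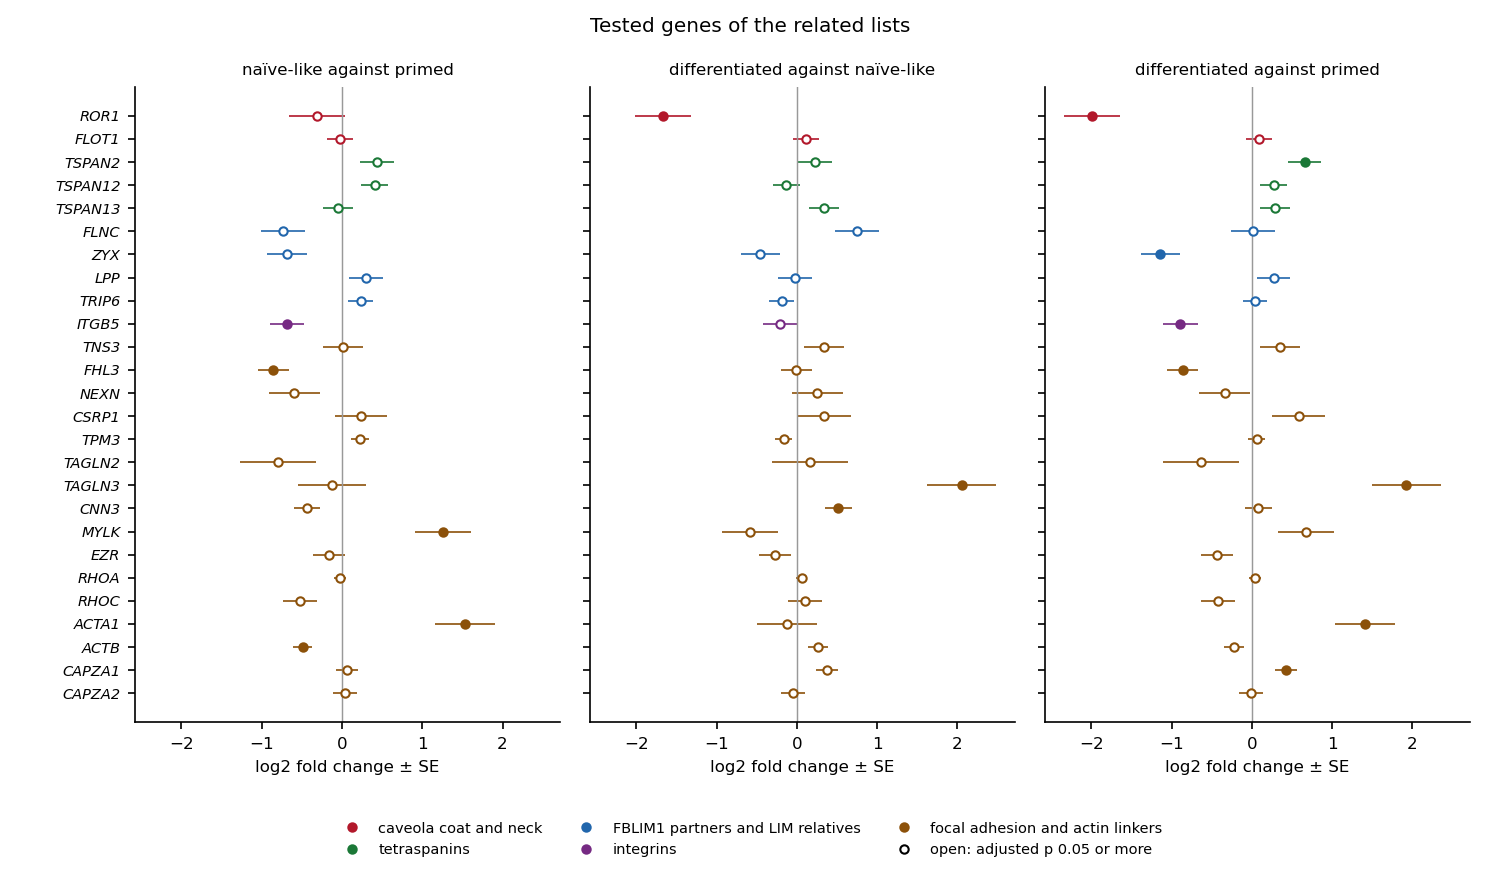
Difference between media of tested genes of the related lists, as log2 fold change with its SE on the horizontal axis and genes on the vertical axis, colored by list; filled points passed a limma adjusted p under 0.05. In naïve-like against primed cells 2 genes (ACTA1 and MYLK) are filled to the right of 0 and 3 (ACTB, FHL3 and ITGB5) to the left.

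The genes whose levels followed each member most closely were ranked by Pearson's r of log2(RPM + 1) over the 21 PSC libraries, which share 7 lines and 3 media. ETS2, a transcription factor, was among the 3 closest genes of CAV2 (r = 0.88) and FBLIM1 (0.91), with medians of 112, 19.7 and 26.0 RPM in primed, naïve-like and differentiated cells.

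Genes close to CAV1 were FAM43A (0.91) and AP2M1, a subunit of the clathrin adaptor (0.88). F3, tissue factor, was close to CAV2 (0.85) and ALCAM, a cell adhesion molecule, to FBLIM1 (0.89). TM4SF18 was followed by LRRN3 (0.87), PHACTR2 (0.84) and RHCE (0.79), and TM4SF1, with most values near the level of a few reads, by SPSB1 (0.79), OSBPL3 (0.74) and CPEB2 (0.74). With the mean of each medium removed, the closest genes were PPP1R2 for CAV1 (0.83), CDV3 for CAV2 (0.82), ME1 for TM4SF1 (0.79), KCTD8 for TM4SF18 (0.84) and TMEM167B for FBLIM1 (0.87), so that none of the genes closest over all libraries came first within media. Among the members themselves, r was 0.85 for CAV1 with CAV2 and 0.75 within media, 0.88 and 0.68 for CAV2 with FBLIM1, and 0.78 and 0.51 for CAV1 with FBLIM1.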

How the data were processed

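SC3-seq libraries were made by the authors from 1 ng of total RNA. Per the labels' processing notes, cutadapt 1.3, TopHat 1.4.1 and Cufflinks 2.2.0 were used. The authors deposited RPM values, with 1 column per library, and every column was matched to its sample by name. The RPM of the 8415 genes summed to 24.8% to 27.5% of 1000000, and 1 incomplete row was dropped. Of the values under 50 reads, 86.9% to 94.8% were within 2% of whole reads, so no count test was used. The floor of 3 reads covers counting error only.

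The 5 genes and the lists of related and marker genes were chosen with earlier results of these data known. Genes above 4 on log2(RPM + 1) in at least 1 of 21 PSC libraries (2776, or 33.0%) were tested with limma 3.58.1 in R 4.3.3, with a mean-variance trend, 3 media in 1 fit, two-sided, at a Benjamini-Hochberg adjusted p under 0.05. ESC and iPSC lines were compared in a fit of 6 groups. CAV1, CAV2 and FBLIM1 passed a filter of at least 7 libraries, and TM4SF1 and TM4SF18 did not. All measured genes of the caveola, L6 and FBLIM1 lists were named, the called genes of the others, and up to 3 genes most like each member plus 1 within media, apart from some that are not reported here. The libraries of a line share the line name in their labels, and the naïve-like and differentiated cells were transfected derivatives of that line. Deviations from the medium means had a mean correlation of 0.27 in 21 pairs of the same line (lowest 0.03) and -0.04 in 126 pairs of different lines. Each line was 1 library per medium, so p-values measure the spread between lines. On simulated data for naïve-like against primed with 2776 genes, 85 of 100 genes changed by 2 (log2) and 23 of 100 changed by 1 were recovered, with 5 false calls. The simulation gave every gene the same spread beyond counting error and no differences between lines. Its recovery therefore does not measure that of the tests on these data. Other values were computed in Python 3.11.15. Gene IDs matched the annotation for 5564 genes.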

Additional observations from a re-analysis of the deposited data

Results flagged for a closer look

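CAV1 in the naïve-like library of CMK6 stood far below the others. It was at 30.8 RPM, the next lowest library was TRSK at 98.1 RPM, and the gap took up 0.572 of the range of the 7 libraries on the log2(RPM + 1) scale. This library held 2888000 reads, so the value is far above the level of 3 reads (1.04 RPM). CAV2 (12.1 RPM) was also lowest there, and FBLIM1 (57.1 RPM) was not. TM4SF1 (0.692 RPM) and TM4SF18 (listed at 0) were below 3 reads there, so their rank is not read. The neural marker sum of this library (98.3 RPM) was below that of the other 6 in K5cLD, and its pluripotency marker sum was 2237 RPM. Without CMK6 the difference of CAV1 between naïve-like and primed cells was -2.44, and between differentiated and naïve-like cells 1.16. In all, 15 groups of 7 libraries were looked at, in which about 1 in 20 is marked by chance (0.75 groups), and the cause was not tested.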

How the results depend on the processing

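The results were recomputed with a pseudocount of 0.1, other filters, quantile normalization, centred libraries, no mean-variance trend, 2 media in the fit, the cell line as a block, and without each line in turn. No result reversed. In naïve-like against primed cells the count of related genes called (5) was 8 (2 rose and 6 fell) with centred libraries and 10 (3 rose and 7 fell) with the replicate block that pairs libraries by line, and 3 to 9 without 1 line. In differentiated against naïve-like cells the count (3) was 5 with centred libraries and 5 with the replicate block (4 rose and 1 fell in both). The block changed no other count of calls by over 1.5 times. The cause was not tested. In the filter of at least 7 libraries TM4SF1 and TM4SF18 were not tested. Single genes of the lists lost their call 10 times in other settings, mostly without a filter, where more genes were tested, and 21 times without 1 line. By Spearman's rho 1 of 3 closest genes was shared for TM4SF1, TM4SF18 and FBLIM1. TM4SF18 and FBLIM1 in differentiated against naïve-like cells lay near 0 and took either sign without 1 line (-0.37 to 0.12 and -0.07 to 0.20). TM4SF1 and TM4SF18 are limited by depth.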
